A study of Homo sapiens with 18 samples.

Results

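The 7 genes described here set the pace of the committed step of glycolysis, and were followed through a table of 20263 genes, of which 14234 were tested. They are the 3 phosphofructokinase-1 isoenzyme genes PFKL (liver type), PFKM (muscle type) and PFKP (platelet type), the bifunctional enzyme genes PFKFB2, PFKFB3 and PFKFB4, and TIGAR. They were chosen by name, as the rows whose Ensembl identifiers map to these 7 symbols, and all 7 were in the table and passed the filter on low counts. RNA was sequenced from cells labelled as 3 wild-type human cancer lines: MHCC-97H, from liver, HCT-116, from colon, and MDA-MB-231, from breast. For 24 h, with 10% fetal bovine serum present, cells of each line were kept either with the solvent DMSO or with H3B-8800 at 20 nM. H3B-8800 is a drug candidate that binds the splicing factor SF3B1. There were 6 groups of 3 libraries, and no source used here states that the 3 came from separate cultures, so p-values measure the spread between these samples, which may be technical.

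Phosphofructokinase-1 is a tetramer that adds a second phosphate to fructose 6-phosphate, the step that commits sugar to glycolysis. Its activity is held back by ATP and citrate and is raised by AMP and by the signalling sugar fructose bisphosphate that the PFKFB enzymes make and break down. Among these, PFKFB3 leans strongly to synthesis and is widely expressed in growing and cancer cells, PFKFB4 is known from testis and tumours, and PFKFB2 is the heart form, a target of kinases such as AKT and AMPK. TIGAR, a p53 target, breaks the same signalling sugar down and so favours the pentose phosphate pathway.

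Library totals ran from 28232315 to 41488278 counts. Marker genes did not bear out the MHCC-97H and MDA-MB-231 labels, and were mixed for HCT-116. Genes of intestinal epithelium summed to 1596 to 1660 CPM (a gene's reads relative to all reads of its library, as a fixed multiple) in the 6 libraries labelled MDA-MB-231, with 5 of the 6 genes detected, and to 1612 to 1695 CPM in those labelled HCT-116. All 6 of these genes were at 0 in the libraries labelled MHCC-97H, and CDX1 was at 0 under every label. Liver genes summed to 4.22 to 5.59 CPM under the MHCC-97H label, where ALB, APOA1, APOB, AFP, TTR and SERPINA1 were at 0. The same list summed, under MDA-MB-231 and under HCT-116, to 194 to 242 and 211 to 255 CPM. Most of that was TF, at a mean of 157 and 166 CPM. ALB was at a mean of 17.2 and 21.2 CPM, and SERPINA1 at 0.0823 and 0.0559. The 5 breast genes summed to 72.6 to 83.4 CPM under the MDA-MB-231 label, where SCGB2A2 and KRT5 were at 0, to 75.3 to 87.7 CPM under HCT-116 and to 7.04 to 9.35 CPM under MHCC-97H. Mesenchymal genes summed to 8572 to 9241 CPM under MDA-MB-231, nearly all of it FN1, with VIM at 17.0 to 20.7 CPM and TWIST1 at 0. They summed to 8350 to 9936 CPM under HCT-116 and to 1302 to 1434 CPM under MHCC-97H. Epithelial genes summed to 4190 to 5281 CPM under HCT-116, 4282 to 4826 under MDA-MB-231 and 1357 to 1580 under MHCC-97H. Among them EPCAM went the other way, at a mean of 0.0808 CPM under HCT-116, 0.0176 under MDA-MB-231 and 16.3 under MHCC-97H. Log2 levels correlated at a median r of 0.986 between libraries of the HCT-116 and MDA-MB-231 labels, as high as within either label, and at 0.65 between either and MHCC-97H. The groups are therefore named by their labels, and results under the HCT-116 and MDA-MB-231 labels are not evidence from separate lines.

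In DMSO, the libraries labelled MHCC-97H carried more RNA of all 3 isoenzyme genes and less PFKFB3 than the others. PFKL (chromosome 21, 44300051 to 44327376, plus strand, GRCh38) was at 679 ± 20.0 CPM (SD, n = 3) in DMSO under the MHCC-97H label, 259 ± 10.9 under MDA-MB-231 and 274 ± 20.8 under HCT-116. PFKM (chromosome 12, 48105139 to 48146404, plus strand) was at 235 ± 3.95, 98.3 ± 7.71 and 103 ± 4.77 CPM in the same order. PFKP (chromosome 10, 3066333 to 3137712, plus strand) was at 956 ± 14.2, 452 ± 15.3 and 472 ± 37.7 CPM. For each isoenzyme gene all 6 MHCC-97H libraries, treated or not, lay above all 12 others. For PFKFB3 and PFKFB4 all 6 lay below the 12. The share of all tested genes with such a separation was not counted, so it is not a trait particular to these genes. The edgeR log2 differences from MDA-MB-231 were 1.39, 1.26 and 1.08 for PFKL, PFKM and PFKP, with a largest adjusted p of 4.2e-10. Those from HCT-116 were 1.31, 1.18 and 1.02. In these bulk samples, fewer expressing cells and less RNA per cell cannot be told apart.

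PFKFB3 (chromosome 10, 6144934 to 6254644, plus strand) ran the opposite way, at 91.4 ± 1.57 CPM under the MHCC-97H label against 263 ± 0.622 and 292 ± 18.8 CPM. Its log2 difference was -1.52 (SE 0.06, edgeR adjusted p = 3.1e-12) from MDA-MB-231 and -1.67 (SE 0.06, adjusted p = 1.0e-12) from HCT-116. PFKFB4 (chromosome 3, 48517684 to 48562015, minus strand) differed less than PFKFB3, at 176 ± 11.0 CPM against 196 ± 2.59 and 208 ± 0.693. The log2 difference of PFKFB4 was -0.24 (edgeR adjusted p = 0.00056) from HCT-116 and -0.15 (adjusted p = 0.015) from MDA-MB-231. Scaling to library totals made these larger, at -0.50 (edgeR adjusted p = 5.1e-08) and -0.43 (adjusted p = 2.8e-07). The MDA-MB-231 call was lost without MHCC-97H DMSO 1 (adjusted p = 0.052) or DMSO 2 (0.071), and with relative log expression or upper-quartile scaling or DESeq2. PFKFB2 (chromosome 1, 207034366 to 207081024, plus strand) was at 25.4 ± 4.16 CPM against 38.1 ± 2.68 and 33.8 ± 4.44, with log2 differences of -0.58 (adjusted p = 0.0014) and -0.41 (adjusted p = 0.014). The direction for PFKFB2 flipped once each library's trend on GC content and gene length was removed (0.33 and 0.47), and the reversed differences were also called. The call against HCT-116 was lost without MHCC-97H DMSO 2 or HCT-116 DMSO 1. TIGAR (chromosome 12, 4307763 to 4354593, plus strand) was near the limit of detection under every label, with 33 to 94 counts a library and 1.53 ± 0.363, 1.79 ± 0.16 and 1.79 ± 0.195 CPM in DMSO, and was not called.

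Thus 6 of the 7 genes were called against each other label, with 3 higher and 3 lower before the GC and length trend was removed. Of all tested genes, 82.7% were called against MDA-MB-231 (39.5% higher and 43.2% lower) and 82.5% against HCT-116 (39.5% higher and 43.0% lower), so a count of 6 in 7 sits near the background. In DMSO, HCT-116 and MDA-MB-231 libraries differed, by edgeR, in 0 of the 7 genes, against 0.0351% of all genes. PFKFB3 alone had an unadjusted p under 0.05 there, and DESeq2 and limma voom also called 0.

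Levels were compared between genes only after division by exonic length, the union of a gene's annotated exons. In MHCC-97H DMSO libraries PFKP led at 198 CPM per kb, followed by PFKL at 76.1, PFKM at 32.1, PFKFB4 at 28.8, PFKFB3 at 15.0, PFKFB2 at 2.49 and TIGAR at 0.381. No neighbouring pair in that order overlapped across the 3 libraries, the closest being PFKM (31.6 to 32.7) and PFKFB4 (27.5 to 30.9). Under the MDA-MB-231 label in DMSO the order was PFKP (93.5 CPM per kb), PFKFB3 (43.0), PFKFB4 (32.0), PFKL (28.97), PFKM (13.4), PFKFB2 (3.73) and TIGAR (0.445). The HCT-116 DMSO libraries had the same order, from 97.6 CPM per kb for PFKP to 0.447 for TIGAR. In the H3B-8800 libraries of these labels PFKFB4 and PFKL overlapped. PFKP was first and TIGAR last in every group. When length was taken from the longest coding transcript of the basic annotation instead, a choice made after seeing the data, PFKL moved from the fourth to the second place under both the MDA-MB-231 and the HCT-116 label.

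**Figure D1:**
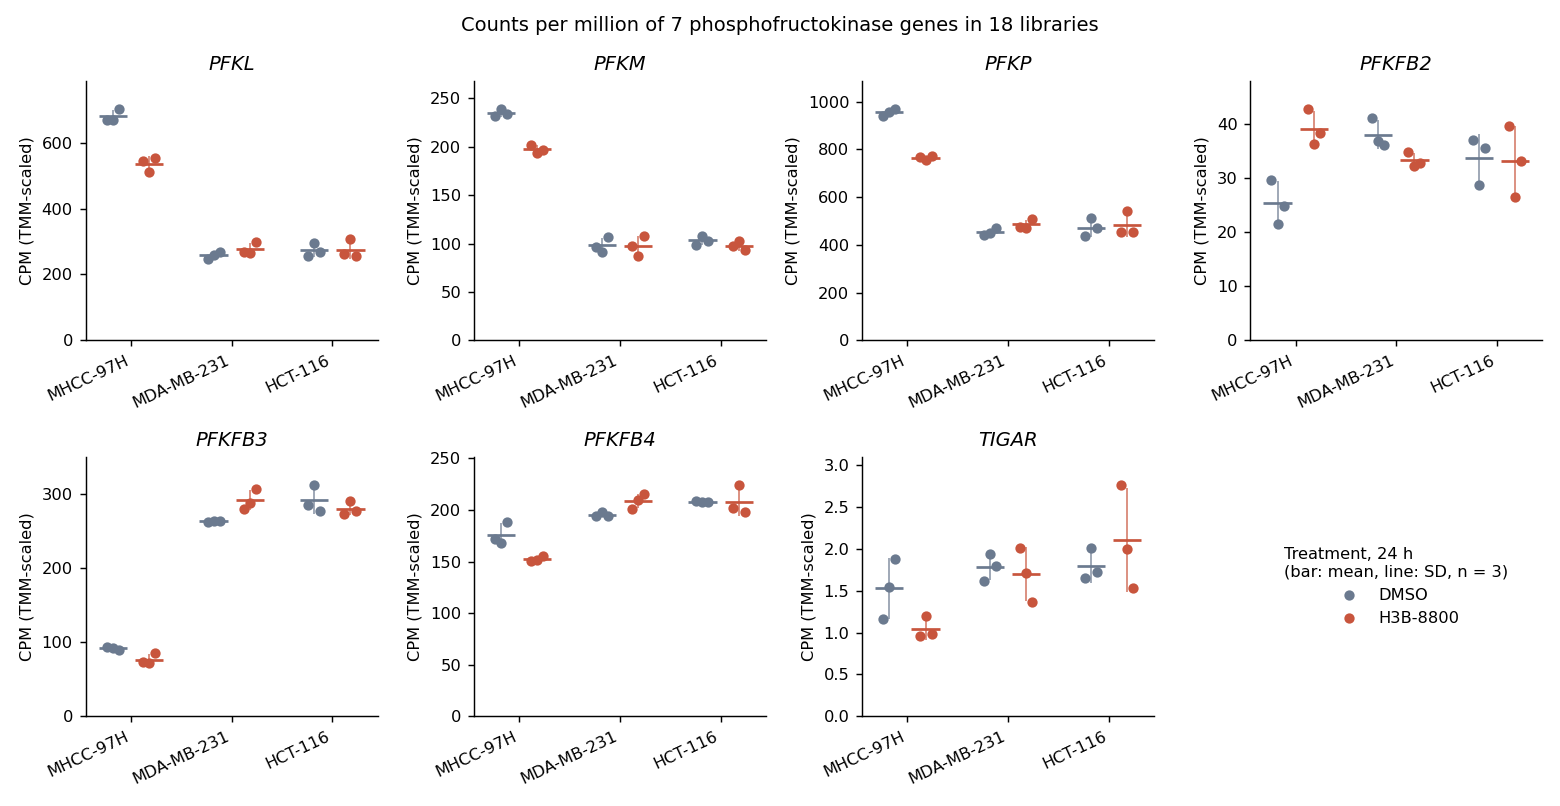
Level of each of the 7 genes in every library, in CPM scaled by trimmed mean of M values, by line label; points are libraries, horizontal bars means and vertical lines SD (n = 3). PFKL, PFKM and PFKP were highest in the MHCC-97H libraries and lower there after H3B-8800, PFKFB2 was higher there after H3B-8800, and the vertical axes start at 0 and differ between genes.

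After H3B-8800, the MHCC-97H libraries held less RNA of all 3 isoenzyme genes and of PFKFB3 and PFKFB4, and more PFKFB2. PFKL was at 667, 668 and 702 CPM in the 3 DMSO libraries and at 544, 511 and 554 CPM in the 3 treated ones. Every treated library lay below every control, and PFKL fell by 21.1% (log2 fold change -0.34, SE 0.07, edgeR adjusted p = 0.0049). PFKP, the most abundant isoenzyme RNA, was at 941, 957 and 970 CPM in DMSO and 770, 755 and 771 CPM after treatment. The groups did not overlap, and PFKP fell by 20.0% (-0.32, SE 0.07, adjusted p = 0.0046). PFKM went from 231, 239 and 234 CPM to 202, 193 and 197 CPM. It too was lower in every treated library, and fell by 15.8% (-0.25, SE 0.07, adjusted p = 0.019). The PFKM call was lost without DMSO 2 (adjusted p = 0.063), DMSO 3 (0.055) or H3B-8800 replicate 2 (0.066).

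Of the enzymes that make and break down the signalling sugar, PFKFB2 rose. It was at 29.8, 21.5 and 24.9 CPM in DMSO and at 42.9, 36.3 and 38.4 CPM after H3B-8800 under the MHCC-97H label, with every treated library above every control. The rise was 1.54-fold (log2 fold change 0.63, SE 0.14, 95% interval 0.32 to 0.93, edgeR adjusted p = 0.0066). PFKFB3, the synthesis-leaning form, went from 93.0, 91.4 and 89.8 CPM to 73.2, 71.2 and 84.96 CPM. The third treated library lay closest to the controls without reaching them, and PFKFB3 fell by 16.4% (-0.26, SE 0.06, adjusted p = 0.0094). PFKFB4 went from 172, 168 and 188 CPM to 150, 151 and 155 CPM. Its groups did not overlap, and it fell by 13.4% (-0.21, SE 0.05, adjusted p = 0.011), a call lost without DMSO 3 (-0.15, adjusted p = 0.064). TIGAR had 1.16, 1.54 and 1.88 CPM in DMSO and 0.958, 1.20 and 0.986 CPM after treatment, so the groups overlapped. With 33 to 61 counts a library its log2 fold change was -0.55 (95% interval -1.07 to -0.02, adjusted p = 0.11), and it was called under none of the 29 alternatives run.

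In all, 6 of the 7 members passed in the MHCC-97H libraries (1 higher and 5 lower), against 27.6% of all tested genes (12.9% higher and 14.7% lower). Treated and control libraries did not overlap for those 6, against 47.6% of all tested genes. The median log2 fold change was -0.26 over the 7 and -0.06 over all tested genes. Scaling to library totals left 3 calls, PFKL (-0.21), PFKP (-0.19) and PFKFB2 (0.76). That scaling also turned the split over all genes from 1831 higher and 2091 lower to 2501 and 346, and upper-quartile scaling gave 1943 and 1301. The scaling factors themselves moved with treatment, at 0.86 to 0.891 in the MHCC-97H controls and 0.952 to 0.967 in the treated libraries. Fitting the 6 MHCC-97H libraries alone, without those of the other labels, kept 5 of the 6 calls. The exception was PFKFB3 (-0.20, adjusted p = 0.066).

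**Figure D2:**
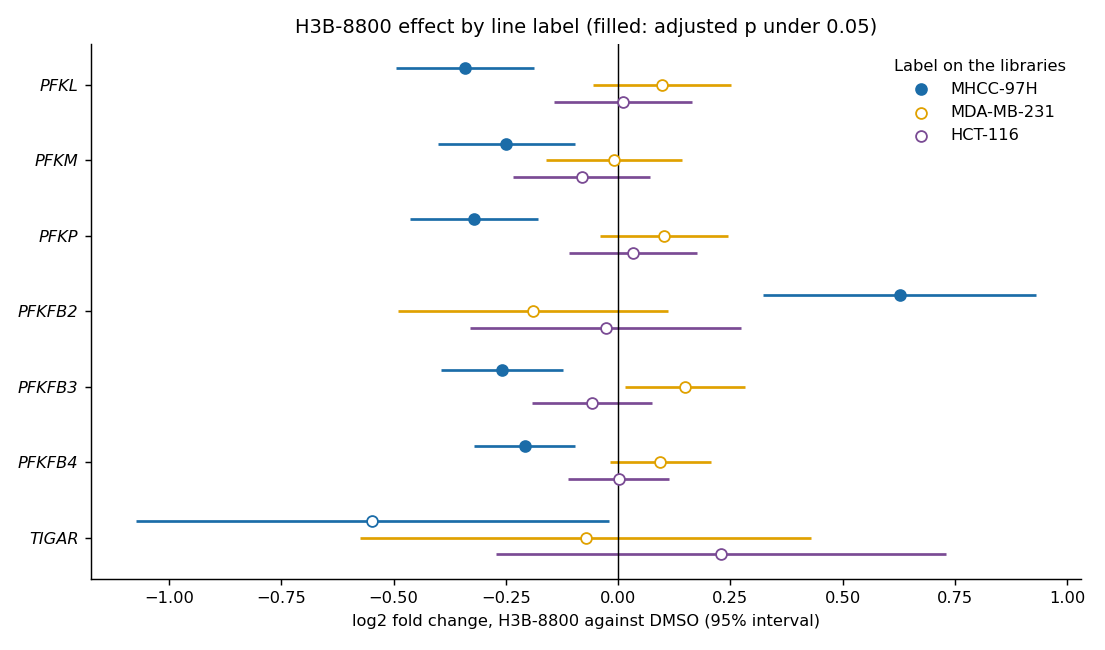
Log2 fold change of H3B-8800 against DMSO with its 95% interval from edgeR for the 7 genes under each label; filled circles have an adjusted p under 0.05. The 6 filled circles all belong to the MHCC-97H label, with PFKFB2 at 0.63 and 5 genes between -0.34 and -0.21.

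Under the MDA-MB-231 label 0 of the 7 genes were called, against 0.0351% of all tested genes, and DESeq2 and limma voom called 0 as well. PFKFB3 came closest. It was at 262, 263 and 264 CPM in DMSO and at 280, 288 and 307 CPM after H3B-8800, a log2 fold change of 0.15 (SE 0.06, edgeR adjusted p = 0.66), and was the 1 member with an unadjusted p under 0.05. PFKP had 440, 448 and 469 CPM in DMSO and 477, 472 and 508 CPM after treatment (0.10, adjusted p = 0.80). PFKFB4 had 194, 198 and 194 CPM against 201, 210 and 215 CPM (0.09, adjusted p = 0.75). PFKFB2 had 41.1, 37.0 and 36.1 CPM against 34.9, 32.4 and 32.9 CPM (-0.19, adjusted p = 0.82). In these 4 genes the treated and control libraries did not overlap, against 18.5% of all tested genes, with PFKFB2 lower and the other 3 higher after treatment. PFKL (247 to 269 CPM in DMSO and 264 to 298 CPM after treatment), PFKM (91.3 to 107 and 87.4 to 108 CPM) and TIGAR (1.62 to 1.94 and 1.36 to 2.01 CPM) overlapped.

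Under the HCT-116 label 0 of the 7 genes were called, again against 0.0351%, and 0 had an unadjusted p under 0.05. DESeq2 and limma voom also called 0. All 7 genes overlapped between treated and control libraries, where 7.00% of all tested genes did not. PFKL was at 256, 297 and 269 CPM in DMSO and 263, 307 and 257 CPM after treatment, and PFKP at 435, 511 and 469 against 454, 542 and 453 CPM. Library 2 of both groups was the highest for these 2 genes. Fold changes ran from -0.08 for PFKM to 0.23 for TIGAR on the log2 scale, and the 95% interval for PFKL was -0.14 to 0.16. Averaged over the HCT-116 and MDA-MB-231 labels, 0 of the 7 were called against 0.0422% of all genes, 0 had an unadjusted p under 0.05, and DESeq2 and limma voom called 0.

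The difference in response between labels was tested directly. Against MDA-MB-231, 5 of the 7 genes responded differently under the MHCC-97H label, where 20.2% of all tested genes were called. The log2 differences were -0.44 for PFKL (SE 0.10, edgeR adjusted p = 0.012), -0.42 for PFKP (0.09, 0.010), -0.41 for PFKFB3 (0.09, 0.0098), -0.30 for PFKFB4 (0.07, 0.015) and 0.82 for PFKFB2 (0.20, 0.014). PFKM (-0.24, adjusted p = 0.10) and TIGAR (-0.47, adjusted p = 0.35) did not pass. Scaling to library totals ended the calls of PFKL, PFKFB3 and PFKFB4. Removing the trend on GC content and length ended those of PFKFB2 (edgeR adjusted p = 0.059) and PFKFB4. PFKP was called in all 29 alternatives. Against HCT-116, PFKL (-0.35, SE 0.10, adjusted p = 0.038), PFKP (-0.35, SE 0.09, adjusted p = 0.029) and PFKFB2 (0.65, SE 0.20, adjusted p = 0.045) were called, 3 of 7 where 13.2% of all genes were. DESeq2 and limma voom also called these 3. None remained when only the 12 libraries of the MHCC-97H and HCT-116 labels were fitted. Leaving out 1 library ended the call of PFKFB2 in 15 of 18 cases, of PFKL in 8 and of PFKP in 7. The libraries whose removal left none of the 3 called were MHCC-97H DMSO 2 and 3, MHCC-97H H3B-8800 1 and 2, HCT-116 DMSO 1 and 3, and HCT-116 H3B-8800 2. Between MDA-MB-231 and HCT-116 the responses of 0 of the 7 genes were called as different, against 0.0351% of all genes. PFKFB3 was again the 1 with an unadjusted p under 0.05, and DESeq2 and limma voom called 0.

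GC content moved with the response. Across 14223 genes, the MHCC-97H fold change had a Spearman correlation of -0.52 with GC content of the longest transcript and of 0.36 with exonic length. Genes are not independent replicates, so this is a description. The corresponding values were 0.31 and -0.16 under MDA-MB-231 and 0.18 and -0.12 under HCT-116. PFKFB2, the gene that rose, has the lowest GC content of the 7 (43.5%), and PFKL has the highest (64.1%). Genes within 1 percentage point of GC had a median log2 fold change of 0.12 around PFKFB2 (quartiles -0.09 to 0.46) and of -0.26 around PFKL (-0.33 to -0.14). PFKFB2 lay above its neighbours' upper quartile. PFKL (-0.341 against a lower quartile of -0.334), PFKM (-0.249 against -0.244) and PFKP (-0.321 against -0.313) lay just below theirs. PFKFB4 at -0.21 lay beside the median of its neighbours, -0.20, and PFKFB3 at -0.26 lay within their quartiles (-0.30 to -0.02). TIGAR, at 44.2% GC, lay on the other side of 0 from its neighbours' median of 0.10. With each library's trend on GC content and length removed, 4 of the 6 calls held. They were PFKL (-0.29, edgeR adjusted p = 0.0043), PFKM (-0.24, 0.031), PFKP (-0.13, 0.035) and PFKFB2 (0.29, 0.031). PFKFB3 (-0.14, 0.0997) and PFKFB4 (-0.07, 0.22) were lost. PFKP and PFKFB2 kept their calls at less than 50% of their log2 size in the first fit.

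**Figure D3:**
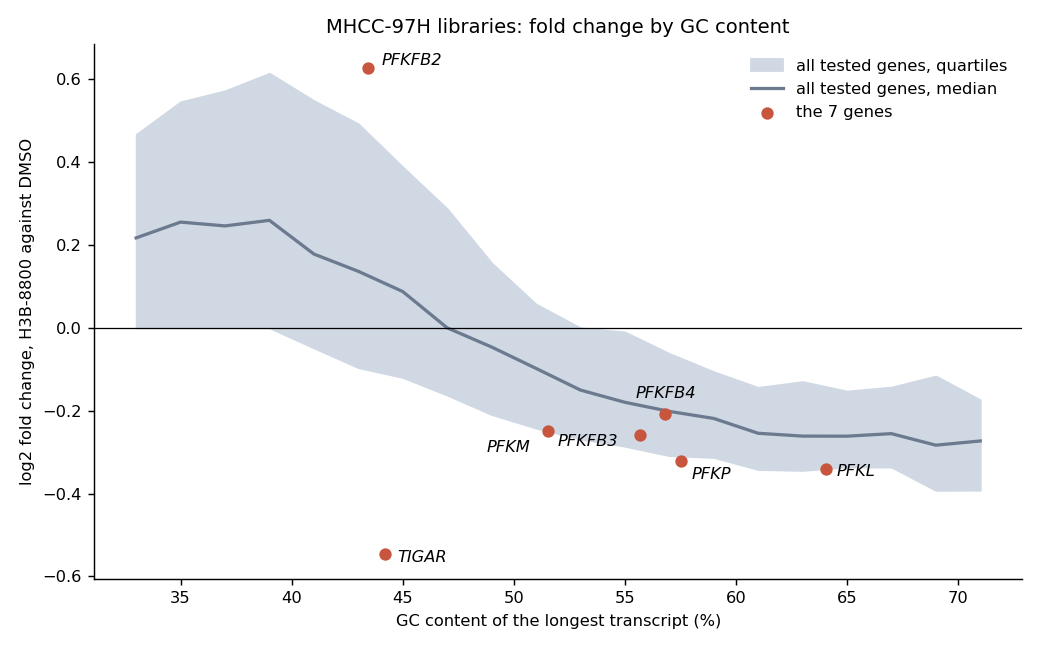
Log2 fold change of H3B-8800 against DMSO in the MHCC-97H libraries by GC content of the longest transcript; the line and band are the median and quartiles of all tested genes in bins 2 percentage points wide, and the points are the 7 genes. PFKFB2 at 0.63 and TIGAR at -0.55 lie farthest from the line, and PFKFB4 at -0.21 lies on it.

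**Figure D4:**
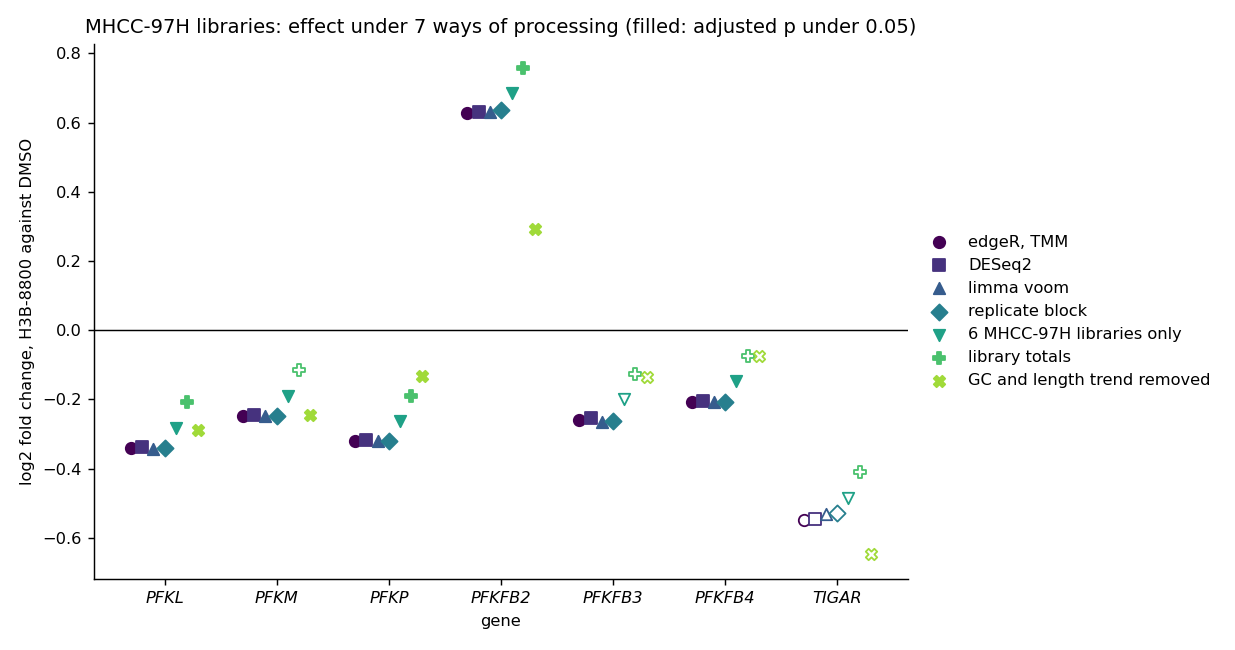
Log2 fold change of the 7 genes in the MHCC-97H libraries with TMM scaling in edgeR and under 6 alternatives; filled symbols have an adjusted p under 0.05. PFKL, PFKP and PFKFB2 are filled under all 7, and TIGAR under none.

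Because the 3 isoenzymes assemble into one tetramer, their shares of the summed level per kb were followed within each library, a measure that library scaling does not touch. Under the MHCC-97H label PFKP made up 64.6 ± 0.177% in DMSO and 64.5 ± 0.515% after H3B-8800. PFKL made up 24.9 ± 0.395% and 24.5 ± 0.561%, and PFKM 10.5 ± 0.218% and 11.0 ± 0.158%. In these shares, which keep the trend on GC content and length, the mean proportions of the 3 RNAs thus moved little. With that trend removed, as above, the log2 fall of PFKP was smaller than those of PFKL and PFKM. The PFKM share was higher in every treated library, by 0.518 percentage points. Its exact two-sided permutation p was 0.1, the smallest that 3 against 3 libraries allow, and 0.54 after Benjamini-Hochberg adjustment over the 9 tests. Under the other labels PFKP went from 68.8 ± 0.317% to 69.4 ± 0.797% (MDA-MB-231) and from 68.5 ± 0.369% to 69.3 ± 0.555% (HCT-116). Each had an exact permutation p of 0.3. The PFKM share changed by -0.670 (MDA-MB-231) and -0.641 (HCT-116) percentage points, with exact permutation p of 0.3 and 0.2. Across the labels 0 of the 9 tests passed. With 0.1 the smallest possible p, no share test could pass whatever the data. The tests therefore do not decide whether the shares changed. The size of a share depends on the length used: PFKP in MHCC-97H DMSO was 51.1% with no length and 65.9% with the longest transcript.

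The PFKFB family shifted more. PFKFB2 made up 5.38 ± 0.831% of the summed PFKFB level per kb in MHCC-97H DMSO libraries and 9.32 ± 0.861% after treatment, with 4.73 to 6.31% in controls and 8.74 to 10.3% in treated libraries. The groups were separate. PFKFB3 stood at 32.4 ± 1.55% and 30.2 ± 1.74%, and PFKFB4 at 62.3 ± 1.82% and 60.5 ± 1.48%. PFKFB3 was the larger share under the other labels, at 54.6 ± 0.343% under MDA-MB-231 and 56.0 ± 1.87% under HCT-116 in DMSO. These family shares are descriptions, with no test.

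**Figure D5:**
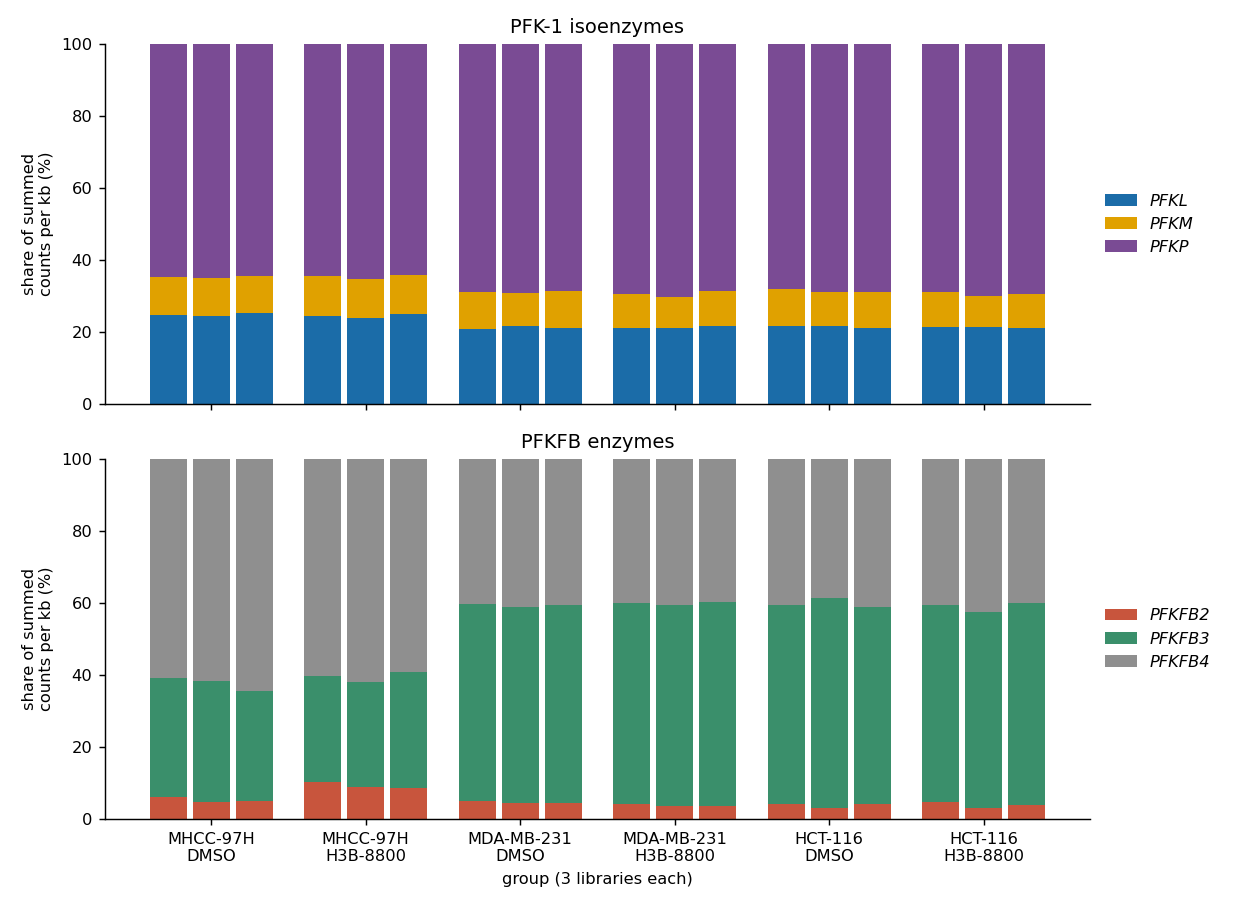
Share of each gene in the summed counts per kb of exonic length, in percent, for the 3 isoenzymes (top) and the PFKFB enzymes (bottom); each bar is a library. PFKP holds 64.6% in MHCC-97H DMSO libraries, and PFKFB4 is the largest PFKFB share there while PFKFB3 is the largest under the other labels.

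Across the 18 libraries, after each label's mean was subtracted, PFKL and PFKP followed each other at r = 0.98, and both ran against PFKFB2 (r = -0.85 and -0.90). The genes most like PFKL were FAM129B (r = 0.98), PFKP and DNM2 (0.98). Those most like PFKP were CALR, COLGALT1 and PFKL, all at 0.98. PFKM was followed by MTCH1 (0.94), ADCK2 (0.90) and OBSL1 (0.90). For PFKFB2 they were WDR11 (0.97), HERC1 (0.97) and MDN1 (0.97), with GC contents of 42.7% to 47.9%. PFKFB3 was followed by SUFU (0.93), LRP5 (0.92) and POFUT1 (0.91), and PFKFB4 by FBL (0.94), EEF2K (0.94) and SMG5 (0.93). TIGAR was followed less closely, by DNAJB11 (0.85), STK16 (0.82) and RYK (0.81). These points share libraries, depth and the MHCC-97H treatment difference.

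Since 5 of the genes fell together, their start regions are shown for the core of the hypoxia response element, ACGTG or GCGTG, which the oxygen-regulated factor HIF binds. RefSeq windows on GRCh38.p14, 250 bases before to 50 after a start, matched 6 of the 7 genes with 16 starts (PFKFB2 was not among them). The core was found on either strand in 9 of the 16 windows, or 56.3%, and in 48.4% of all 35116 windows, so it is common. Of the other genes that fell, PFKM had a core in 2 of 7 starts and PFKP in 2 of 4. The 2 PFKM windows overlap and hold the same core, so the window counts are not counts of separate sites. TIGAR, which was not called, had a core in its only start. The 4 windows below belong to the genes with a core in every start among those that fell, and capitals mark the core.
PFKL, plus strand, chr21:44299803-44300102: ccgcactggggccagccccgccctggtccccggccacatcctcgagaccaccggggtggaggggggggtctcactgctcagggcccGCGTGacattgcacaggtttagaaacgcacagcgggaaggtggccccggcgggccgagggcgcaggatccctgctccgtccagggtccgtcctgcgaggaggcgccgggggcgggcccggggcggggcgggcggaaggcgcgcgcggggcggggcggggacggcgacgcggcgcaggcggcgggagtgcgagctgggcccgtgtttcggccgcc
PFKFB3, first start, plus strand, chr10:6144671-6144970: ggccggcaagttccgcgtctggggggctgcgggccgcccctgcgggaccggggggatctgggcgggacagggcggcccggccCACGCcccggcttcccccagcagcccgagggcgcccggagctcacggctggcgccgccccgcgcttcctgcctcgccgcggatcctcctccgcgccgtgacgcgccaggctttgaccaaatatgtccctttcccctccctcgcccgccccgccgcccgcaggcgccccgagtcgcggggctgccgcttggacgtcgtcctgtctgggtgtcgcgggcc
PFKFB3, second start, plus strand, chr10:6202682-6202981: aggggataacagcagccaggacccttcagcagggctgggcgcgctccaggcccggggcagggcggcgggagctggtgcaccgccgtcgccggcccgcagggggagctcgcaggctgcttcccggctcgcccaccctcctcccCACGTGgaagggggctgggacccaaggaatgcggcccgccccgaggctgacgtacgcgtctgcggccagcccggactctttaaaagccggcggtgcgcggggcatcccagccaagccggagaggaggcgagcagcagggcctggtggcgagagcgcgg
PFKFB4, minus strand, chr3:48556754-48557053: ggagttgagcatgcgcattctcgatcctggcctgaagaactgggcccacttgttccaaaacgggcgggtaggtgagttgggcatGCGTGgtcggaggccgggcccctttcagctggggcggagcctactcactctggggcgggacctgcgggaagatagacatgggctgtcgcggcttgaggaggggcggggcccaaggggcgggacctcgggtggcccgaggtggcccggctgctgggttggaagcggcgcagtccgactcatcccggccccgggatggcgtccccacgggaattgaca
PFKL has 1 core at position -164 from the start, the first PFKFB3 start 1 at -168, read as its reverse complement, and PFKFB4 1 at -166. The second PFKFB3 start holds a palindrome, CACGTG, that reads as ACGTG on both strands, a motif in 7.26% of all windows. The GC box GGGCGG, bound by SP factors and present in 45.0% of all windows, was in 11 of the 16. Of those 11, 4 are PFKM windows that overlap each other. All 4 windows shown, which were picked for their core, held the GC box too. A match is a description of the letters in the window, and these counts come from RNA alone.

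Most of the other glycolysis genes fell with the phosphofructokinases under the MHCC-97H label. In the MDA-MB-231 and HCT-116 libraries edgeR called 0 of the 78 listed genes tested (14 and 5 with an unadjusted p under 0.05), and DESeq2 and limma voom called 0. The lists were chosen with earlier results of these data known. Of the 4 tested genes around the fructose phosphate step, 3 fell, against 14.7% of all tested genes: ALDOC (-0.30, SE 0.06, edgeR adjusted p = 0.0040) and ALDOA (-0.29, SE 0.08, adjusted p = 0.016), the aldolases that split the product, and GPI (-0.20, SE 0.06, adjusted p = 0.019), which makes the substrate. ALDOA shares 53.5% of its exonic bases with other genes. FBP1, which reverses the step, had a log2 fold change of 0.29 (SE 0.34, adjusted p = 0.59), and PFKFB1 and FBP2 were too low to test. Of 15 other glycolysis enzymes and transporters 13 fell and 1 rose, with a median of -0.32 against -0.06 over all genes, where 12.9% rose and 14.7% fell. The enolase ENO2 (-1.57, adjusted p = 6.6e-09), the lactate dehydrogenase subunit LDHB (-1.01, adjusted p = 1.4e-06) and the hexokinases HK2 (-1.45, adjusted p = 0.00054) and HK1 (-1.02, adjusted p = 0.00097) fell by more than any of the 5 members that fell. LDHB shares 33.4% of its exonic bases with another gene.

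In the pentose phosphate pathway, which TIGAR favours, 4 of 7 genes fell, against 14.7% of all tested genes, with a median of -0.27 against -0.06. TALDO1 (-0.36) and TKT (-0.33) interconvert its sugars, and PGLS (-0.36) carries an early reaction. Their edgeR adjusted p-values were 0.0060 to 0.018. Of 16 hypoxia-inducible genes and their regulators 3 rose and 3 fell, with a median of -0.03. Those shares lie near the 12.9% and 14.7% of all tested genes. HIF1A, the oxygen-regulated subunit of HIF, rose (0.64, SE 0.10, adjusted p = 0.0016), as did KDM3A, a histone demethylase (0.50, adjusted p = 0.0043), and EPAS1 (0.16, adjusted p = 0.011), while NDRG1 fell (-0.22, adjusted p = 0.0048). Of 19 tested p53 targets, the family that includes TIGAR, 7 fell and 1 rose, against 14.7% and 12.9% of all tested genes. Those named by the rule all fell: GDF15 (-0.40, adjusted p = 0.0048), TP53I3 (-0.43, adjusted p = 0.015), SESN2 (-0.32, adjusted p = 0.017) and FDXR (-0.41, adjusted p = 0.021).

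Among 14 genes for kinases known to phosphorylate PFKFB proteins, 5 rose and 3 fell, against 12.9% and 14.7% of all tested genes. The AMPK catalytic subunits PRKAA1 (0.50, SE 0.11, edgeR adjusted p = 0.0068) and PRKAA2 (0.90, SE 0.24, adjusted p = 0.014) rose, and PRKACA, a catalytic subunit of protein kinase A, fell (-0.19, adjusted p = 0.021). Of 3 ubiquitin ligase genes known to act on these enzymes, FZR1 (-0.30, adjusted p = 0.013) and TRIM21 (-0.35, adjusted p = 0.0071) fell and BTRC rose (0.38, adjusted p = 0.036). With the trend on GC content and length removed, 9 of the 15 glycolysis genes still fell and 1 rose, while the falls left were 1 of 4 around the fructose phosphate step, 1 of 7 in the pentose phosphate pathway and 0 of 19 among p53 targets. Hypoxia-inducible genes then had 3 rises and 5 falls, the kinases 2 and 1, and the ubiquitin ligases 0 of either. HIF1A (0.42), PRKAA1 (0.25) and PRKAA2 (0.55) were still called, and KDM3A (0.08, adjusted p = 0.46) was not. Over all genes, 1021 rose and 1159 fell with the trend removed. Scaling to library totals raised the median of all genes from -0.06 to 0.04 and gave 2501 rises and 346 falls over all genes, and each of the 7 lists had fewer falls. Under it 8 of the 15 glycolysis genes fell and 1 rose, hypoxia-inducible genes had 5 rises and 0 falls, and p53 targets 3 rises and 1 fall.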

How the data were processed

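Gene-level RNA sequencing was analysed in 18 libraries, 3 for each of 3 line labels under DMSO or H3B-8800. The deposited table holds whole-number read counts per Ensembl gene, not normalized. Per the submitters' processing notes, fastp, HISAT2 and GRCh38 were used, and for versions, counter, strand setting and kit the sources used here give nothing. Without strand, reads of overlapping genes cannot be told apart: TIGAR shares 45.6% of its exonic bases with other genes, PFKM 8.6%, PFKFB4 4.7%, PFKFB2 3.1%, PFKP 2.5%, PFKL and PFKFB3 0%.

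All 18 libraries entered 1 edgeR 4.0.16 fit in R 4.3.3, with group means as coefficients, TMM scaling, filterByExpr by group and the robust quasi-likelihood F test, which left 14234 genes. Calls required a p under 0.05 after Benjamini-Hochberg adjustment over all of them. CPM values are TMM-scaled except for marker lists, and errors are SD with n = 3. Names, positions, exonic lengths and GC content came from GENCODE release 29, which held 20224 of the 20263 genes. Isoenzyme shares were tested by exact permutation. Alternatives were scaling by RLE, upper quartile or library totals, keeping every gene with a count or only those with 50 counts in 3 libraries, a replicate block, DESeq2 1.42.0, limma voom 3.58.1, only the labels compared, removal of a spline trend (5 degrees of freedom) on GC content and length, alone or with the block, and leaving out each library. The edgeR fit of the MHCC-97H effect was tested on simulated counts with known changes, and the other steps were not tested in that way. The 7 members are always named, with up to 4 genes per list by smallest adjusted p of the MHCC-97H effect and the 3 genes averaging at least 10 CPM most correlated with each member. Some listed genes are not reported here. Members and lists were chosen with earlier results of these data known. No pair of libraries in a group agreed within sampling noise.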

Additional observations from a re-analysis of the deposited data

Results flagged for a closer look

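The response to H3B-8800 differed between line labels, by a test of the difference itself in edgeR, for 8 pairs of gene and label. Against MDA-MB-231 the log2 differences (MHCC-97H minus the other label) were -0.44 for PFKL, -0.42 for PFKP, 0.82 for PFKFB2, -0.41 for PFKFB3 and -0.30 for PFKFB4. Against HCT-116 they were -0.35 for PFKL, -0.35 for PFKP and 0.65 for PFKFB2. The marker genes do not separate the MDA-MB-231 from the HCT-116 libraries, so both sets of differences set the MHCC-97H libraries against much the same expression profile.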

How the results depend on the processing

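Under the MHCC-97H label all 6 called genes kept their direction in the 29 alternatives. The number called was 3 with library totals and 4 to 6 when 1 library was left out. For the difference from MDA-MB-231, 2 were called with library totals, 3 without the trend on GC content and length and 5 to 6 with 1 library left out, against 5 with TMM scaling. For the difference from HCT-116, 1 was called with relative log expression scaling, 1 with upper-quartile scaling, 1 with library totals, 1 without the GC and length trend and 0 with only the labels compared, and 0 to 3 with 1 library left out, against 3. The PFKFB2 level difference between labels turned from negative to 0.33 (MDA-MB-231) and 0.47 (HCT-116) with the trend removed, and to 0.33 and 0.46 with the replicate block as well. These reversed differences were also called. GC content was the only gene property besides length adjusted for, and other causes were not tested. With a replicate block, 6 members were called under the MHCC-97H label, 6 in the difference from MDA-MB-231 and 4 in that from HCT-116. The calls gained were PFKM (-0.24, adjusted p = 0.011) from MDA-MB-231 and PFKFB4 (-0.20, adjusted p = 0.046) from HCT-116, and PFKL, PFKP and PFKFB2 had adjusted p-values of 0.0022, 0.0013 and 0.0016 in the difference from HCT-116. Libraries with the same number did not deviate together beyond r = 0.1 in every pair of any label (HCT-116: 0.05, 0.19 and 0.03 over all tested genes), although over genes above 10 CPM the HCT-116 values were 0.18, 0.45 and 0.13, so the pairing is uncertain. Over all genes, the 3922 calls under the MHCC-97H label became 2180 with the trend removed and 2141 to 2439 without DMSO 2, DMSO 3 or H3B-8800 2. The 2872 in the difference from MDA-MB-231 became 1492 with the trend removed. The 1878 in that from HCT-116 became 3319 with the block, 877 with the trend removed, 21 with only the labels compared and 322 to 2841 with 1 library left out. DESeq2 called 49, 22 and 68 genes under MDA-MB-231, HCT-116 and their mean, where edgeR called 5, 5 and 6. Depth limits TIGAR most, at 33 to 94 counts a library.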
